A study of Homo sapiens with 16 samples.

Results

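In THP-1 cells, 17 of 151654 chromatin regions held H3K27ac ChIP-seq tags in all USP18 knockout libraries and few or none in any wild type library. The regions were selected from a table of H3K27ac ChIP-seq tags by a fixed cut: at most 5 raw tags in each of 4 WT libraries and at least 15 raw tags in each of 4 USP18KO libraries. A tag is an aligned read, and each region is a window of about 1000 bp placed on a merged ATAC-seq peak, that is, on a stretch of open chromatin. The values in both genotypes were therefore what chose the regions, and the difference between genotypes is described here without a test. THP-1 is a human monocytic cell line derived from acute myeloid leukemia (AML). By the labels, WT cells carried Cas9 only and had received a control guide by lentivirus, and USP18KO cells (USP18-/-) received guides against USP18. Cells of each genotype were left untreated or were given IFNα at 1000 U/ml for 6 h, with 2 libraries in each of the 4 groups. The study sorted single cells to obtain its edited clones, and the labels give no clone for these libraries, so genotype and clone cannot be told apart. The study describes the 2 libraries of a group as biological replicates, and the labels do not say which cultures they came from.

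H3K27ac, acetylation of lysine 27 on histone H3, is written by the p300 and CBP acetyltransferases and marks active promoters and enhancers. An ATAC-seq peak without the mark can be an inactive or poised element, and a distal acetylated element cannot be assigned to a gene by position alone. USP18 is an IFN-induced protein that restrains signaling at the type I IFN receptor, and IFNα drives acetylation at IFN-stimulated genes (ISGs) through the ISGF3 complex and its DNA element, the IFN-stimulated response element (ISRE).

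The libraries held 9046141 to 12935454 tags in the regions, with the 4 USP18KO libraries above the 4 WT libraries. In all they held 24712371 to 30501088.5 tags, so most tags lay outside the regions. The background level of a window was not computed and the input was not used. How far the lower counts below stand above background was therefore not tested. At the USP18 promoter, the window held 76.0 and 84.0 tags in untreated WT, 182 and 146 in WT with IFNα, 94.0 and 87.5 in untreated USP18KO, and 554 and 444 in USP18KO with IFNα. An edit in the coding sequence leaves this window intact, so the value does not check the knockout. Of the 10 monocyte markers, 8 had a window at their start site, 6 of these were at 5 CPM (tags scaled to a library of 1000000) or more in every group, and their sum was 167 to 239 CPM across the groups. Sums were 0.653 to 1.82 CPM for T and NK cell markers, 6.20 to 9.23 for B cell, 1.56 to 2.33 for erythroid and megakaryocyte, 2.45 to 5.96 for epithelial and 1.66 to 2.55 for neural markers. The sum of endothelial and fibroblast markers was 63.7 to 96.6 CPM, of which PECAM1, also a gene of monocytes, gave 59.4 to 92.6. Many genes of the other lists had no window at their start site: 2 of 6 T and NK cell, 2 of 4 B cell, 1 of 6 erythroid and megakaryocyte, 2 of 5 epithelial, 3 of 5 neural and 2 of 5 endothelial and fibroblast genes had one. The part of other cell types in the levels below was not tested.

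The 17 windows differed in sequence as well as in place. The central 200 bases of 5 of them are shown, read from the hg38 plus strand 5′ to 3′. The LINC00910 window was the most acetylated, and capitals mark its CG dinucleotides. The GYG2P1 window was the one called higher with IFNα, and capitals mark an 8 base unit, TTCCTGTT, that was chosen after the sequence was seen. In the SOWAHC and second MIR4666B windows capitals mark matches to NF-κB (GGANTTTCC) and C/EBP (TTGCNNAA), and in the TTTY23B window a match to the ISRE core (AAANNGAAA), read on both strands.
LINC00910 window, chr17:43361008-43361207: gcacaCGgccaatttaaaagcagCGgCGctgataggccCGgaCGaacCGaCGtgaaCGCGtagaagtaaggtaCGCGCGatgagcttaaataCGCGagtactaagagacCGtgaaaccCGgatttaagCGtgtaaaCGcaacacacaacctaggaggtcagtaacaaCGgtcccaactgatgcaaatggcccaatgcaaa
GYG2P1 window, chrY:12217484-12217683: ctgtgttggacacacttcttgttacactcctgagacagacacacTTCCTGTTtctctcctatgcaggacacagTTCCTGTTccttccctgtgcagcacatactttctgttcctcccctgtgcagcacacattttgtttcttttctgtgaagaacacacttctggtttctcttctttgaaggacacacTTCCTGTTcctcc
SOWAHC window, chr2:109636345-109636544: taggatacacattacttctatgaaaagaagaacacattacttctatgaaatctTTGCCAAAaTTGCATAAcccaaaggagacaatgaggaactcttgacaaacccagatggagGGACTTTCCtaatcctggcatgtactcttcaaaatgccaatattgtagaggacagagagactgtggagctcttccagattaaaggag
MIR4666B second window, chrX:29489012-29489211: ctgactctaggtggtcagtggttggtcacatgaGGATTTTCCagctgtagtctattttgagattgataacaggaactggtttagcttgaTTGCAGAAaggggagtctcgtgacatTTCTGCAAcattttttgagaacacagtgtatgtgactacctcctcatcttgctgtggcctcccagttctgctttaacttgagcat
TTTY23B window, chrY:6136229-6136428: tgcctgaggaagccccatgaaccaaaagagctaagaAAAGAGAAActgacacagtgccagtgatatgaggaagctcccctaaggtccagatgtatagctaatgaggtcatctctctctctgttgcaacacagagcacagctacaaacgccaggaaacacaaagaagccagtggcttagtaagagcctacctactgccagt

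The LINC00910 centre held 19 CG dinucleotides, whereas the median was 1 over the 17 windows and 3 over all 151654 windows. The GYG2P1 centre was a run of related repeats, with 3 copies of TTCCTGTT. At least 1 copy was in 3 of the 17 centres and in 3.64% of all regions, and 3 or more copies were in 0.0106% of all regions. Median GC content was 47.0% in the 17 centres (range 39.0 to 56.0%) and 49.0% in all regions. Of 9 motifs searched in these centres, the ISRE core was in 3 of 17 (17.6%; 12.8% of all regions), C/EBP in 3 (17.6%; 16.4%), NF-κB in 2 (11.8%; 0.860%), PU.1 (GAGGAAGT) in 1 (5.88%; 6.41%) and RUNX (TGTGGTT) in 1 (5.88%; 7.05%). The AP-1 letters TGANTCA, held by 12.9% of all regions, had no match in these 200 bases of any of the 17. The same was true of the Chop element TGATGCAAT (0.827% of all regions), of the CTCF letters AGNNGGCGC (5.53%) and of the GATA letters AGATAAG (2.09%). A match is a run of letters and was not tested as a binding site.

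Uniqueness of the sequence also varied. In the TTTY23B window, 55.7% of the 32 base stretches occurred more than once in the genome, and in the first MIR4666B window 24.2% did. The values for the ATP1B1 windows were 10.0 and 19.7%, and for SOWAHC and the second MIR4666B window 16.1 and 10.6%. The other 11 windows were between 0 and 4.23%. Tags in repeated stretches can come from more than 1 place, and the TTTY23B window had the largest share of such stretches. The reads of the study were paired and longer than 32 bases. How many tags could come from another place was not tested.

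Most of the 17 regions were far from a transcription start site (TSS), although 12 of them had their centre inside a gene. By the annotation in the table, 8 were intergenic, 7 intronic, 1 was in a noncoding exon and 1 in a promoter. The promoter share was 5.88%, against 11.8% of all regions, and 11 regions (64.7%) lay over 50000 bp from the nearest TSS, against 28.5% of all regions. Median distance to a TSS was 86339 bp, against 20667 bp. Long terminal repeats of the ERV1 class (LOR1b, MER101B and MER72B) underlay 3 of the 17 regions (17.6%; 3.09% of all regions), and LINE L1 elements underlay 2 (11.8%; 5.76%). The nearest TSS was that of a noncoding RNA for 9 (52.9%; 22.2%). In GENCODE, 7 region centres were inside a protein-coding gene, 5 inside a long noncoding RNA gene alone and 5 in no gene.

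The mirrored cut, at least 15 tags in each WT and at most 5 in each USP18KO library, gave 23 regions, and these too were distal: 16 of 23 (69.6%) lay over 50000 bp from a TSS and 5 (21.7%) were on ERV1 repeats. No test was made between the sets.

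Nearest genes of the 17 included none of the listed ISGs (0 of 162 windows assigned to 30 names), NF-κB targets (0 of 114), integrated stress response genes (0 of 98), HOX genes (0 of 68) or cadherin, contactin and neurexin type adhesion genes (0 of 730). These lists together held 0.773% of all regions, so a count of 0 among 17 regions does not set the 17 apart.

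The LINC00910 region (chr17:43360607-43361607) held the most tags. It contains a CpG island and sits in an intron of LINC00910, a long noncoding RNA. Untreated USP18KO libraries held 202 and 152 tags and IFNα treated ones 256 and 177, whereas untreated WT libraries held 2.5 and 0.5 and IFNα treated WT libraries none. All 4 WT libraries together held 3.0 tags. A count of 0 allows up to 3 counts, so the WT level was at the limit of detection. In normalised counts the USP18KO level was 16.1 ± 2.12 CPM untreated and 19.7 ± 4.32 CPM with IFNα (SD, n = 2). A pair of windows overlapping it, which the rule left out because single WT libraries held 7.5 and 9.5 tags, held 108 to 171 and 126 to 174 tags in the USP18KO libraries.

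The GYG2P1 region (chrY:12217083-12218083) was second. GYG2P1 is a pseudogene of a glycogenin gene, 204007 bp away. Untreated USP18KO libraries held 65.5 and 62.5 tags, IFNα treated ones 144 and 118, and WT libraries 3.0 to 4.5. Chromosome Y as a whole carried more tags in USP18KO cells, at 825 to 860 of every 1000000 tags in regions against 640 to 668 in WT, and the 150 tested Y regions had a median log2 difference of 0.46 in untreated cells. The TTTY23B region (chrY:6135828-6136828), near a testis transcript of the Y chromosome and on an L1PA16 element, held 22.5 and 18.5 tags untreated, 45.5 and 31.5 with IFNα, and 2.0 to 4.0 in WT.

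The next regions were distal to coding genes. The LINC01645 region (chr1:177478086-177479086) held 80.5, 63.0, 65.5 and 58.5 tags in the USP18KO libraries (untreated pair, then IFNα pair) and 1.0 to 4.5 in WT. The LINC02425 region (chr12:66071235-66072235), 59015 bp from LLPH, held 58.5, 50.5, 40.0 and 39.0 tags and 1.0 to 4.0 in WT. The TMCO5A region (chr15:37765411-37766411), 168696 bp upstream of that transmembrane protein gene, held 50.5, 43.5, 52.0 and 35.0 tags and 2.0 to 3.5 in WT. All 3 held more than 30 tags in every USP18KO library and fewer than 5 in every WT library. The MIR572 region (chr4:11106487-11107487), 322577 bp from the heparan sulfate enzyme gene HS3ST1, held 46.0, 22.5, 35.0 and 31.0 tags and 1.5 to 5.0 in WT.

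IL1RAPL1, a synaptic member of the interleukin-1 receptor family on the X chromosome, held 3 regions in its introns, although the table names them by MIR4666B and MAGEB2. The first MIR4666B window (chrX:29487439-29488439) held 42.0 and 28.0 tags untreated, 41.5 and 27.5 with IFNα and 1.0 to 4.5 in WT. The second (chrX:29488611-29489611), on an MER101B repeat, held 24, 27.5, 29.0 and 20.0 tags and 1.0 to 3.0 in WT. The window named by MAGEB2, a cancer-testis antigen gene 301736 bp away, held 33.5, 39.5, 36.0 and 27 tags and 0 to 2.0 in WT. In each of the 3 the treated and untreated USP18KO libraries overlapped.

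Chromosome 1 held 5 regions in 4 loci. A pair of overlapping windows in intron 2 of ATP1B1, the β subunit of the sodium pump, shared part of their tags. The first (chr1:169115719-169116719) held 24.5, 24, 36.5 and 26.5 tags in USP18KO cells and 2.5 to 4.5 in WT, and the second (chr1:169115988-169116988) held 25.5, 26, 36.5 and 25.5 and 2.0 to 4.0. The RABGAP1L region, in an intron of a Rab GTPase activating protein gene, held 24, 19.5, 29.5 and 27.5 tags and 3.5 to 4.5 in WT. The ABL2 region (chr1:179142606-179143606) was the promoter case, 17 bp from an internal start site of ABL2, a nonreceptor tyrosine kinase. It held 20.0 and 19.0 tags untreated, 33.5 and 36.5 with IFNα and 1.0 to 4.0 in WT.

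The other 3 regions reached the limit of 5 tags in a WT library, as the MIR572 region did. The SOWAHC region (chr2:109635944-109636944), 22110 bp from that gene and on an L1MC4 element, held 44, 34.5, 39.5 and 24.5 tags and 4.0 to 5.0 in WT. A pair of windows lay in a long noncoding RNA gene on chromosome 9, 301572 and 244221 bp from the RNA-binding protein gene ELAVL2. The first (chr9:23524265-23525265), in a noncoding exon of LOC101929563, held 27, 20.5, 16.5 and 28.0 tags and 2.5 to 5.0 in WT. The second (chr9:23581616-23582616) held 22, 18.5, 25.5 and 25.5 tags and 3.0 to 5.0 in WT.

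**Figure D1:**
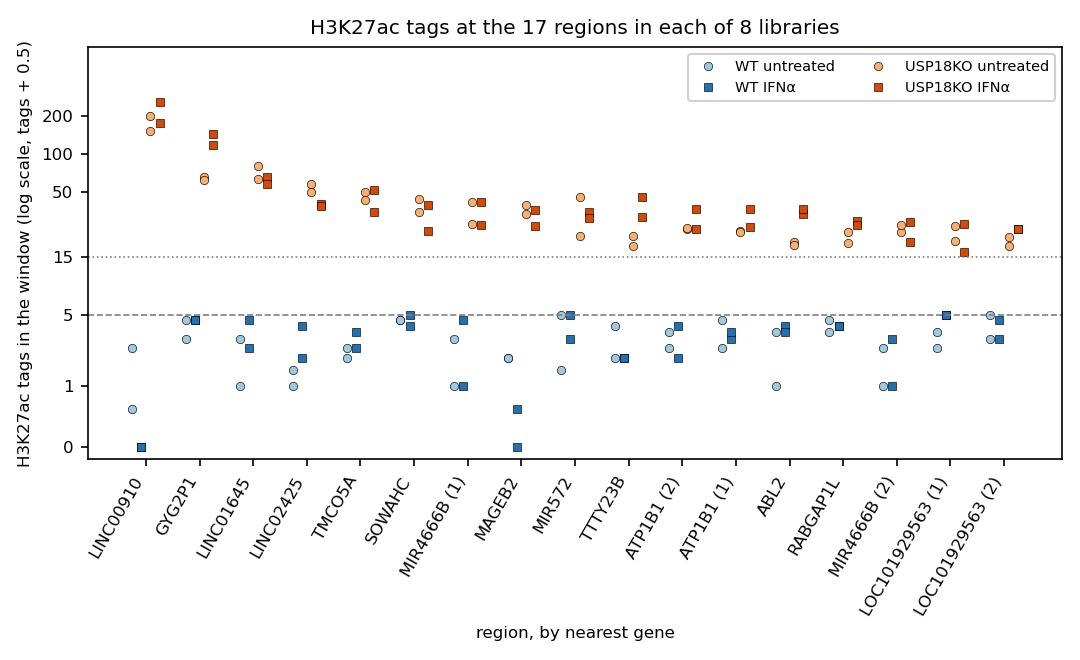
H3K27ac tags (log scale, tags plus 0.5) at each of the 17 regions, named by nearest gene and ordered by mean CPM in USP18KO cells. Each point is 1 library, circles are untreated and squares IFNα treated, and the lines mark the cut at 5 and 15 tags. LINC00910 stood highest at 152 to 256 USP18KO tags, GYG2P1 came next at 62.5 to 144, and the other 15 regions were between 16.5 and 80.5.

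"Only in knockout cells" is thus a statement of a cut on low counts. The sum over the 4 WT libraries was 3.0 to 18.0 tags per region, and 2 regions had a WT library at 0. The highest WT value was exactly 5 tags in 4 regions, and the lowest USP18KO value was 16.5. Just outside the cut, 17 regions with 15 or more tags in every USP18KO library had a highest WT value of 5.5 or 6 tags, and 7 regions with at most 5 WT tags had a lowest USP18KO value of 14 or 14.5. Outside LINC00910, the ratio of mean CPM in USP18KO to WT was 5.03 to 25.8. Of all regions, 4.09% had at most 5 tags in each WT library.

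The ATAC-seq peaks behind the regions were a second assay that the rule did not use. For each region the table lists which of 8 ATAC-seq libraries of the study, 4 WT and 4 USP18KO, contributed a peak. The study ran ATAC-seq in duplicate with and without IFN, so each set of 4 mixes untreated and treated cells. The counts below do not separate the treatments. No WT library contributed to 15 of the 17 regions (88.2%), against 16.5% of all regions. In 11 of 17 (64.7%) all 4 USP18KO libraries and no WT library contributed, against 1.29% of all regions. The 2 exceptions, the first MIR4666B window and TTTY23B, had a peak in 1 WT library each, and RABGAP1L had a peak in 1 USP18KO library alone. In the mirrored set, no USP18KO library contributed to 14 of 23 regions (60.9%). These are counts of peaks from WT and USP18KO THP-1 cells, given without a test, and they carry the same confounding of genotype with clone. The 17 were chosen for few WT tags, and 4.09% of all regions met that part of the cut. The share with WT peaks among those regions was not computed, so all regions are a loose comparison. At LINC01645, an overlapping window that was not selected had an ATAC-seq peak in all 4 WT libraries while holding 1.0 to 6.5 WT tags of H3K27ac, so open chromatin was called there in WT cells at little acetylation. A nearby window at TMCO5A (chr15:37764325-37765325) also had a peak in all 4 WT libraries, at 1.0 to 4.0 WT tags.

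**Figure D2:**
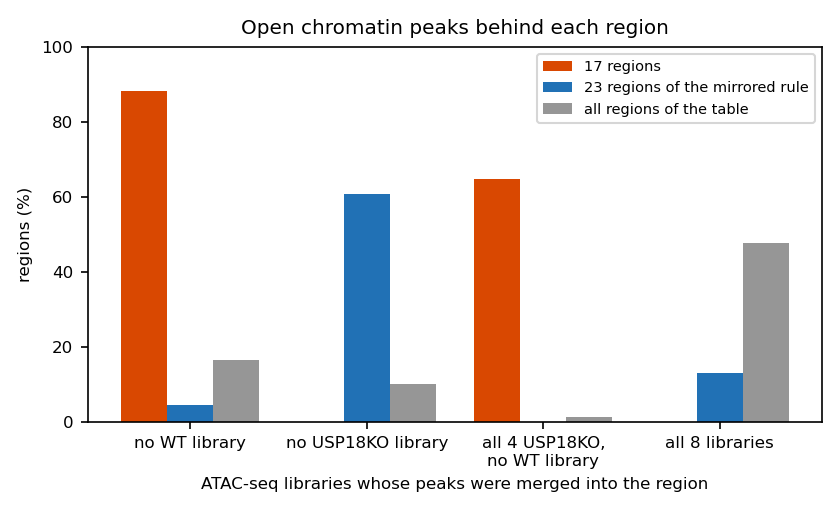
Percentage of regions (y axis) by which ATAC-seq libraries gave a peak (x axis), for the 17 regions (orange), the 23 regions of the mirrored cut (blue) and all regions of the table (grey). No WT library gave a peak at 88.2% of the 17 regions and at 16.5% of all regions.

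The regions were then placed along the chromosomes. Joined at gaps of up to 50000 bp, they formed 15 loci, 2 of which (ATP1B1 and MIR4666B) held 2 regions each. Chromosome 1 held 5 of 17 (29.4%; 10.0% of all regions), chromosome X 3 (17.6%; 2.84%), chromosome Y 2 (11.8%; 0.181%) and chromosome 9 2 (11.8%; 4.34%). In the mirrored set, chromosome X held 8 of 23 (34.8%), chromosome 1 held 4 (17.4%), chromosome 9 held 1 (4.35%) and chromosome Y none. The 5 regions of chromosome 1 lay within 10.0 Mb, between 169115719 and 179143606, a stretch with 417 windows or 0.275% of the table.

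Other tested regions around the loci were also higher in untreated USP18KO cells by their medians. In the chromosome 1 stretch, the 283 tested regions that were not selected had a median log2 difference of 0.86 between untreated USP18KO and WT cells, and 82.0% of them were above 0, against 48.9% of all tested regions. The median of chromosome 1 as a whole was -0.05. Between 100000 and 1000000 bp from each locus, the median of the tested regions in untreated cells was above 0 at 15 of 15 loci. It ran from 0.11 at TMCO5A (21 regions) to 2.53 at TTTY23B (2 regions). It was 1.34 at ATP1B1 (58 regions), 1.12 at RABGAP1L (65), 1.40 and 1.39 at the chromosome 9 loci (14 and 11), 0.62 at LINC02425 (79) and 0.20 at LINC00910 (227). The median over all tested regions was -0.02. At the 21 loci of the mirrored cut the same median was above 0 at 2, with a median of -0.40. Between IFNα treated USP18KO and WT cells, medians were taken over all tested regions within 1000000 bp of each of the 15 loci. They ran from -0.001 at TMCO5A (0.33 untreated) and 0.05 at LINC01645 (0.52 untreated) to 2.60 at TTTY23B. The IFNα median over all tested regions was 0.003. The neighbours were not used by the rule but come from the same libraries as the selection. Neighbouring loci of chromosomes 1 and 9 share some of them, and the stretches around the chromosome X loci overlap. A region was tested only if it reached 10 counts in 2 or more libraries. Where tags are few, a neighbour of the 15 loci can thus enter through its USP18KO tags alone. At the mirrored loci it can enter through its WT tags. The filter bears on the sign of the median there, so the count of 15 of 15 is a description only. The input libraries, which carry the DNA of each line without immunoprecipitation, were not analysed here, and the part of DNA content in these levels was not tested.

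**Figure D3:**
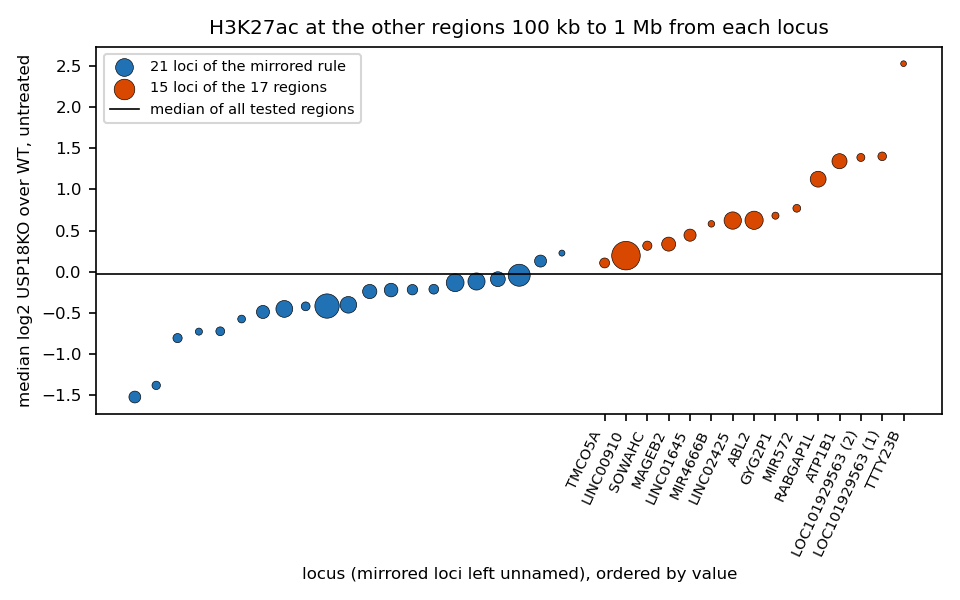
Median log2 difference in H3K27ac between untreated USP18KO and WT cells (y axis) at the tested regions 100000 to 1000000 bp from each locus, one dot a locus, with dot area growing with the number of regions. The 15 loci (orange) were at 0.11 to 2.53, and the 21 loci of the mirrored cut (blue) were at -1.52 to 0.23 around a median over all regions of -0.02 (line). Tested regions are those that reached 10 counts in 2 or more libraries of either genotype.

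Closer in, 123 windows that were not selected lay within 100000 bp of a locus, counting a window once for each locus. At 7 of 15 loci, at least 1 of these held at most 10 tags in every WT and at least 15 in every USP18KO library. On chromosome 9, 3 overlapping windows a few kilobases beyond the second region held more than the region itself, with 33.5 to 91.0 USP18KO tags against 0 to 8.0 WT tags. On chromosome Y, 2 windows a few kilobases before the GYG2P1 region held 35.0 to 76.5 USP18KO tags and 2.0 to 7.0 WT tags. By contrast, at LINC02425 and LINC00910 the neighbour with the most tags was acetylated in both genotypes, with means of 452 and 588 WT tags and 1450 and 1530 USP18KO tags.

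Most of the 17 regions, 16 of them, were not called as changed by IFNα in USP18KO cells. This comparison, IFNα against no treatment within USP18KO cells, did not enter the rule as a contrast, although the requirement of 15 tags in all 4 libraries favours regions present in both states. A region was called where edgeR's quasi-likelihood test over 123276 regions gave a log2 fold change over 1 in size and a Benjamini-Hochberg adjusted p under 0.05. All 17 passed the filter on low counts, through their USP18KO libraries. One of 17 (5.88%) was called higher and none lower, against a background of 7.14% higher and 4.28% lower over all tested regions, so the called share was near the background. At an unadjusted p under 0.05 there were 3 of 17, against 32.4% of all regions, and DESeq2, which gave an adjusted p for 14 of the 17, also called 1 higher and none lower. The median log2 fold change was -0.003, and over all tested regions -0.006. It rested on single libraries: without untreated replicate 1 it was 0.22 (all regions -0.03), and without IFNα replicate 2 it was 0.23 (all regions -0.03). Over the 19 regions that met the cut on scaled tags it was 0.27.

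The region called was GYG2P1, at 5.91 ± 0.214 CPM untreated and 11.9 ± 1.20 CPM with IFNα (SD, n = 2). Its log2 fold change was 1.01 with a standard error of 0.20 and an adjusted p of 2.14e-05 (edgeR). The value sits just over the fold threshold, and it was 0.88 without TMM factors, 0.95 without untreated replicate 1 and 0.88 without IFNα replicate 1, none of which was called. An overlapping window 470 bp further on, which the rule left out because a WT library held 6.0 tags, held 23.5 and 31.5 tags untreated and 106 and 109 with IFNα, a log2 fold change of 1.94 with a standard error of 0.25 (edgeR adjusted p = 4.87e-10). In WT cells that window held 1.5 and 6.0 tags untreated and 5.5 and 1.5 with IFNα. The treated and untreated USP18KO libraries did not overlap in either window. The windows share part of their tags, so they are not separate observations. Other tested windows within 100000 bp of GYG2P1 had log2 fold changes of 0.53, 0.04, -1.06 and -1.04, and none of them was called.

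TTTY23B had a log2 fold change of 0.88 ± 0.33 (SE; edgeR adjusted p = 0.0403), under the fold threshold, and 1.09 when IFNα replicate 2 was left out, where it was called. The adjusted p was 0.0906 without TMM factors, 0.0525 without the filter on low counts and 0.27 with DESeq2. It was 0.13, 0.167 and 0.396 in edgeR when untreated replicate 1, untreated replicate 2 or IFNα replicate 1 was left out. ABL2 had 0.86 ± 0.34 (SE; edgeR adjusted p = 0.0587), with 1.79 ± 0.0588 CPM untreated and 3.25 ± 0.323 CPM with IFNα (SD, n = 2). Both IFNα libraries were above both untreated libraries in CPM at 6 of 17 regions (35.3%), against 27.9% of all tested regions. These were GYG2P1, TTTY23B, ABL2, RABGAP1L, the first ATP1B1 window and the second LOC101929563 window. Both were below at 2 of 17 (11.8%), LINC01645 and LINC02425, against 28% of all tested regions.

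The LINC00910 region did not pass the test, at a log2 fold change of 0.29 with a 95% interval of -0.03 to 0.60. It was 0.016 without IFNα replicate 1 and 0.49 without IFNα replicate 2 (edgeR adjusted p = 0.0357). LINC02425 had the lowest value, -0.48 (-1.0 to 0.04). LINC01645 was at -0.21 (-0.66 to 0.25). The interval lay within 1 log2 unit of 0 at 10 of 17 regions, so a doubling or halving was outside it there. At the other 7 the interval reached past 1 unit on a side. None of the 3 regions with an ISRE core was called: TTTY23B was at 0.88, RABGAP1L at 0.39 and the second ATP1B1 window at 0.27. Over all tested regions, 7.14% were called higher. GYG2P1 had no ISRE core in its central 200 bases. The share called among all regions with an ISRE core was not computed, so nothing is read from this count.

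**Figure D4:**
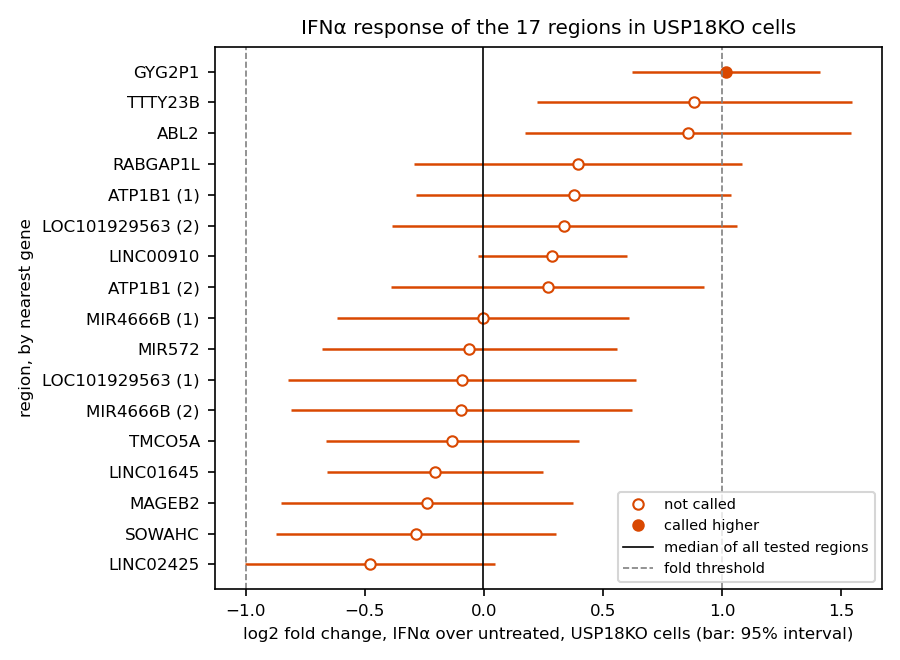
Log2 fold change of H3K27ac with IFNα in USP18KO cells (x axis) at each of the 17 regions (y axis), as edgeR estimates with 95% intervals. The filled point, GYG2P1 at 1.01, was called, and 14 of the others lay between -0.48 and 0.39, with TTTY23B and ABL2 at 0.88 and 0.86.

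The cut held each WT library to at most 5 tags in both states, so it largely fixed the outcome of the IFNα comparison in WT cells and bore on that between genotypes, and nothing is read from either count. None of the 17 was called with IFNα in either direction by edgeR or by DESeq2 (which gave an adjusted p for 2), against 0.382% of all tested regions, and 1 had an unadjusted p under 0.05 in edgeR. That was LINC00910, with 2.5 and 0.5 tags untreated and none with IFNα, which is at or below the limit of detection and gives no fold. Standard errors were 0.66 to 1.83 log2 units in WT cells, against 0.16 to 0.37 in USP18KO cells. The difference of the IFNα effects between genotypes was called at 0 of 17 regions by edgeR and by DESeq2 (adjusted p for 5), against 7.17% of all tested regions, with 1 at an unadjusted p under 0.05 in edgeR, again LINC00910. At GYG2P1 the difference was 0.64 with a 95% interval of -0.82 to 2.10.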

How the data were processed

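H3K27ac ChIP-seq was analysed in 8 THP-1 libraries, and 8 input libraries were not used here. The authors aligned reads to hg38 with Bowtie2 and counted raw tags in 1000 bp windows on merged ATAC-seq peaks with HOMER, and versions are not given in the sources used here. The deposited values are estimated counts in steps of 0.5 (52.2% whole), not normalised, and were rounded to whole counts. The ATAC-seq peak score that the authors deposited beside them was not used.

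The filter kept regions that reached 10 counts in 2 or more libraries, and these were fitted by edgeR 4.0.16 (TMM, quasi-likelihood, 4 group means, limma 3.58.1), with Benjamini-Hochberg adjustment over all 123276. SE is the log2 fold change over the root of F. DESeq2 1.42.0 was an alternative. Tested on simulated data for IFNα in USP18KO cells (116283 regions), edgeR recovered 101 of 101 changed regions with a mean of 30 counts or more, and 152 of 200 in all. Sequences and motif matches came from hg38, in which all 151654 windows lay within a chromosome's length, genes from GENCODE. Counting intervals and floors cover counting error only.

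The regions, gene, marker and motif lists were chosen with earlier results of these data known. Regions were named by rule (the 10 loci with the highest USP18KO CPM, called regions, loci with most regions, promoters, listed genes). RABGAP1L and the 2 LOC101929563 regions fell outside it and were named after their values were seen. Alternatives were other scaling (no TMM factors, RLE), DESeq2, no filter, no fold threshold, USP18KO libraries alone, a replicate block, 1 window per overlapping chain, other cuts and gaps, each library left out, and unrounded values, the last chosen after seeing the data.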

Additional observations from a re-analysis of the deposited data

How the results depend on the processing

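The number of regions and loci depends on the cut, on counts near the limit of detection. A stricter cut (at most 3 and at least 25 tags) gave 2 regions in 2 loci, and a looser one (at most 8 and at least 10) gave 377 in 324. Leaving out 1 library from the cut gave 19 to 29 regions in 17 to 26 loci, most without untreated WT replicate 2 (29 regions) or WT IFNα replicate 1 (26). The count called higher with IFNα in USP18KO cells was 1, but 0 without TMM factors, 2 without a fold threshold, 0 of the 2 strictest regions, 36 of the 377 looser regions (9.55%), and 0 to 2 with a library left out (0 without USP18KO untreated replicate 1 or IFNα replicate 1, 2 without IFNα replicate 2). Of the 377, 5 were called lower. Without TMM factors the median of all regions moved to -0.14, and GYG2P1 at 0.88 was 1.02 above it. Replicate numbers did not pair the samples (r = 0.05 for IFNα in USP18KO cells and 0.01 in WT), and with the replicate block the counts stayed at 1 higher and 0 lower. Signs turned at 5 regions whose values were under 0.14 in size. With a library left out, TMCO5A was at -0.43 to 0.090, the first MIR4666B window at -0.30 to 0.23, MIR572 at -0.41 to 0.42, the second MIR4666B window at -0.37 to 0.11 and the first LOC101929563 window at -0.53 to 0.24. With USP18KO libraries alone the first MIR4666B window was at 0.0048. The causes were not tested. WT effects are limited by the cut at 5 tags a library.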
